A study of Arabidopsis thaliana with 3 samples.

Results

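Of the 16122 regions enriched in the OX ZFHD10 library, 7755 (48.1%, 95% Wilson interval 47.3 to 48.9) were short islands at the ends of protein-coding genes that shared no base with an OX TZP island. An island is a stretch of neighbouring windows that the authors' peak caller joined as enriched. The islands were chosen by their measured positions and lengths in both lists. Each lay on a nuclear chromosome, was shorter than 2500 bp, shared no base with an OX TZP island, and had its midpoint from 1000 bp outside to 100 bp inside an end of a protein-coding gene. The lists came from chromatin of Arabidopsis thaliana seedlings, 7 days old and grown in low blue light, immunoprecipitated with an antibody against green fluorescent protein (GFP). The series had 3 libraries. Col-0, the wild type, gave 1, the TZP overexpressor (OX TZP) gave 1, and the ZFHD10 overexpressor (OX ZFHD10) gave 1; islands of Col-0 were not analysed here. The promoters of the transgenes and the number of independent lines are not given in the sources used here.

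ZFHD10 belongs to the zinc-finger homeodomain (ZF-HD) family of plant transcription factors, which join a zinc finger for pairing with other proteins to a homeodomain that contacts DNA. The gene table annotates HB23 (AT5G39760) as ZHD10, and it was taken as this gene. TZP is a nuclear zinc-finger protein of light signalling that promotes growth of the hypocotyl, the seedling stem. Regions around gene starts hold many known binding sites of plant transcription factors, and regions at gene ends in a compact genome are often shared by a pair of neighbours.

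The whole OX ZFHD10 list held 4731495 reads and the OX TZP list 2112203 reads within islands. With 1 library a line, nothing set side by side below rests on replicates, and no difference was tested. Intervals cover counting error only, and reads multiplied by PCR are not independent molecules. Depth outside islands is unknown, so read densities are set side by side within the OX ZFHD10 list alone. An OX TZP island missing at a place says that none was listed there. The OX TZP list, with fewer reads within islands, could lack weaker ones, and their part in the result was not tested.

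The rule left 10767 islands without OX TZP (66.8% of the nuclear OX ZFHD10 islands). Of these 10482 were under the length limit, and 7755 of the 10482 (74.0%, 73.1 to 74.8) were centred at a gene end. The share of the genome that lies within these windows was not computed, so the 74.0% shows no preference for gene ends. The 7755 islands held 1751515 reads, or 37.0% of all reads in the list, on 38.7% of its covered bases. They were mostly short, with a median length of 700 bp (quartiles 500 and 1000 bp), and held a median of 180 reads (60 to 1154). The number per chromosome was 2028, 1081, 1592, 1192 and 1862 on chromosomes 1 to 5, between 44.5% and 49.8% of each chromosome's islands. A total of 74 (0.954%) fell in 100 kb bins with more pseudogenes than protein-coding genes, where 3.13% of protein-coding genes lay. For OX ZFHD10 islands at no gene end, also without OX TZP and of the same lengths, this share was 3.19% (2.59 to 3.92). It was 0.553% (0.362 to 0.844) for gene-end islands of those lengths that overlapped OX TZP and 1.2% for all nuclear OX ZFHD10 islands, and the rule's call for a protein-coding gene end bears on it.

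The distance to a gene end chose these islands, so its spread within the window is given as a description. It was taken to the nearest end, and over all protein-coding genes the summed gaps beside a gene had a median of 1834 bp. Positions of the genome at each distance were not counted, so the fall outward is no measure of clustering at the boundary. Of the midpoints, 1770 (22.8%) lay up to 100 bp inside a gene, 1791 (23.1%) lay 0 to 99 bp outside, and 1116 (14.4%) lay 100 to 199 bp outside. Farther out the counts fell to 834, 568 and 434 per 100 bp up to 499 bp, and 533 (6.87%) lay 750 to 1000 bp out. The median midpoint was 124 bp outside the nearest end (quartiles 7 and 349 bp). In the 3795 islands of the same lengths at gene ends that overlapped an OX TZP island, the median was 148 bp (19 and 372 bp), and 43.0% of midpoints lay within 250 bp outside against 43.5%.

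**Figure D1:**
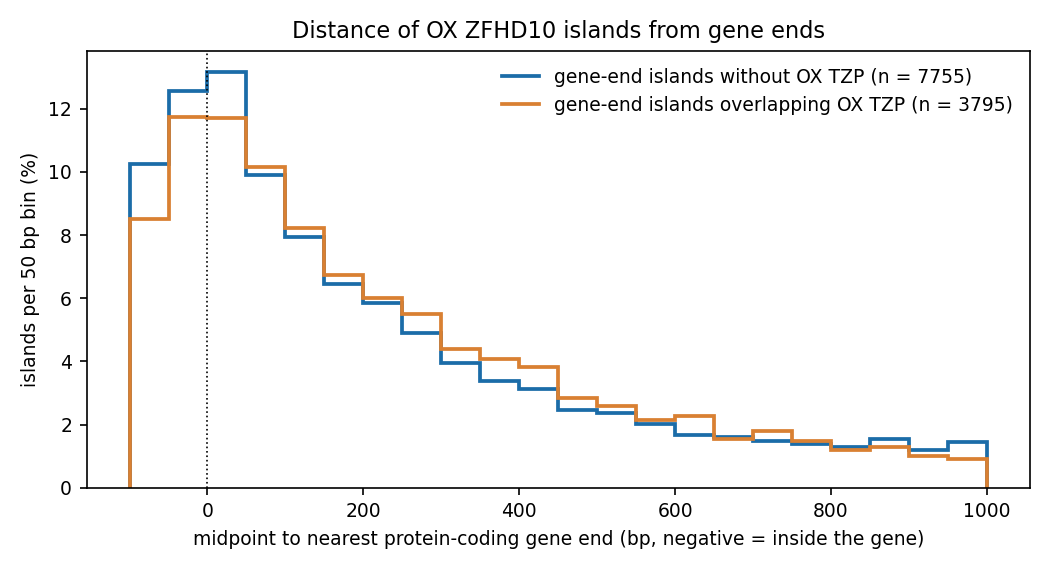
Share of islands (y axis, percent) by distance from midpoint to the nearest protein-coding gene end (x axis, bins of 50 bp, negative inside the gene), for 7755 islands without OX TZP and 3795 islands that overlap it. Both classes peak at the boundary and decline outward, with medians of 124 and 148 bp. Positions of the genome at each distance were not counted, so no background is drawn.

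Most of these islands straddled the boundary. Of the 7755, 6898 (88.9%) reached into a protein-coding gene, 857 (11.1%) lay wholly between genes and 442 (5.7%) lay wholly inside genes. The median island had 48.9% of its length inside genes. A total of 1165 midpoints (15.0%) lay more than 100 bp inside a gene and qualified through the end of another one nearby, so that for them the interior of a gene is an equally good description. The ends of 1 gene were in reach for 4320 islands (55.7%), those of 2 genes for 3253 (41.9%), of 3 genes for 178 and of 4 genes for 4. The gene table has no strand, so start and end of a gene cannot be told apart. The end with the lower coordinate was the nearest in 3905 cases (50.4%, 49.2 to 51.5).

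The nearest OX TZP island was a median of 2850 bp away (quartiles 1150 and 6050 bp). It lay within 500 bp of 945 islands (12.2%), within 1000 bp of 1764 (22.7%) and beyond 5000 bp from 2395 (30.9%). The median density was 260 reads per kb in the 945 nearby islands and 258 in the 2395 distant ones. At the edges of the rule, 82 islands abutted an OX TZP island with no base between (median 251 reads per kb), and 108 were left out for an overlap of 50 bp (258). At 2450 bp long 10 islands were kept (251 reads per kb), and 10 of 2500 bp were left out (271). Midpoints in the outermost 25 bp of the window gave 56 islands (264 reads per kb), and those up to 25 bp farther out gave 54 (231). Midpoints in the innermost 25 bp gave 376 islands (259 reads per kb), and those up to 25 bp deeper gave 162 (254).

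Read density, which the rule did not use, was lower in these islands than at gene ends where OX TZP islands overlapped. It is the number of reads per kb of island. The median was 258 reads per kb (quartiles 226 and 300, range 144 to 790), against 274 (235 and 326) in the 3795 overlapping islands and 247 (216 and 287) in the 2727 islands without OX TZP at no gene end. Of the 7755 islands, 3069 (39.6%) were denser than the median overlapping island. The 95% Poisson interval lay above the median of the whole list (262) in 1925 of them (24.8%, 23.9 to 25.8), against 29.2% of all nuclear OX ZFHD10 islands and 37.0% (35.5 to 38.6) of the overlapping ones. The densest 10% of the list took in 636 of the 7755 (8.2%) and 522 of the 3795 (13.8%).

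Length differed between these classes, with medians of 700 and 900 bp. Within each of 5 length classes the median density was still lower without OX TZP. It was 270 against 277 reads per kb at 200 to 400 bp, 255 against 265 at 450 to 650 bp, 249 against 264 at 700 to 950 bp, 258 against 279 at 1000 to 1450 bp, and 281 against 292 at 1500 to 2450 bp. The share that overlapped OX TZP rose with length, from 18.8% of the gene-end islands of 200 to 400 bp to 51.9% of those of 1500 to 2450 bp. By chromosome the medians ran from 253 to 261 reads per kb without OX TZP and from 272 to 277 with it. By distance to the nearest gene end the median density was 260 reads per kb for midpoints inside the gene, 267 at 0 to 99 bp outside and 249 at 750 to 1000 bp, a span about as wide as the gap between 258 and 274. In overlapping islands the medians at these distances were 265, 279 and 271.

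**Figure D2:**
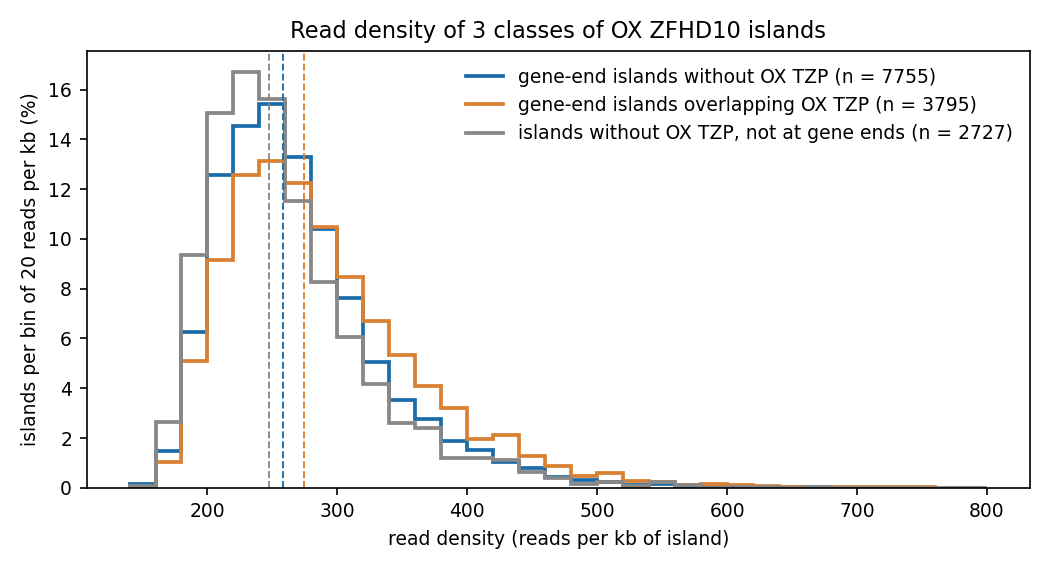
Distribution of read density (x axis, reads per kb of island; y axis, percent of islands per bin of 20 reads per kb) in 3 classes of OX ZFHD10 islands under 2500 bp, with dashed lines at the medians of 258, 274 and 247. The distributions overlap over most of their range.

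The densest of these islands lay at genes of varied roles. The first, on chromosome 4 at 7279201 to 7279700 (TAIR10), had 395 reads on 500 bp, which is 790 reads per kb (exact Poisson 95% interval 714 to 872). The island lay wholly between genes, 690 bp from AT4G12190, and was the densest island of the whole list. The next, on chromosome 5 at 16069651 to 16070500, was centred between AT5G40190 and DEG9, a protease gene. It held 652 reads (767 per kb, 709 to 828), with 88.1% of its length inside genes. Another, on chromosome 1 at 7031651 to 7032350, reached AT1G20310 and AT1G20300 with a density of 731 (669 to 798). An island of 350 bp on chromosome 1 at 20322851 to 20323200, at AT1G54440, lay 300 bp from an OX TZP island and its density was 689 (604 to 781).

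The next dense places were at FZR2 and IRX14-L, with UVI4 below them. At FZR2, which encodes an activator of the anaphase-promoting complex and promotes rounds of DNA replication without division, the island on chromosome 4 at 12012251 to 12012750 had 674 reads per kb (604 to 750). At UVI4, an inhibitor of the same complex, the island on chromosome 2 at 17603601 to 17604400 had 635 (581 to 693); it lay nearer to AT2G42270 (76 bp) than to UVI4 (295 bp). The island at IRX14-L, a gene of xylan synthesis, lay on chromosome 5 at 26821801 to 26822900 and had 660 reads per kb (613 to 710), with AT5G67220 as its other neighbour.

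The last of the 10 densest lay on chromosome 5. In an island centred between AT5G22920, a RING zinc-finger gene, and the cation exchanger gene CHX9 643 reads per kb (603 to 686) were counted from 7663701 to 7665150. In another centred between AT5G15500 and AT5G15510 640 (580 to 705) were counted from 5033401 to 5034050. At PDR2, a P5-type ATPase gene of the phosphate starvation response, 621 (564 to 683) were counted from 7967801 to 7968500, and the midpoint lay 47 bp inside the gene. The nearest OX TZP island was between 300 and 10850 bp away for the 10. The intervals of all 10 lay above the third quartile of 300 reads per kb.

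Islands at the middle and the bottom of the range show what a typical value rests on. At the protein kinase gene MPK20 (chromosome 2, 17839151 to 17840350) 310 reads gave 258 reads per kb (230 to 289). At NF-YC10 and at EMB1144, the latter a chorismate synthase gene, 155 reads on 600 bp gave 258 (219 to 302). The NF-YC10 island was centred 665 bp outside the gene, with 100% of its length inside genes. The least dense were at AT1G55880 with 144 reads per kb (125 to 166), AT1G13530 with 153 (131 to 179) and ACS12 with 155 (132 to 181). Each of the 3 had from 72.4% to 100% of its length inside genes. Among all 7755 islands, those over 50% inside genes had a median of 257 reads per kb and those wholly between genes 252. The most reads, 1154, were in an island of 2100 bp at AT5G45360 (550 reads per kb, 518 to 582). AT5G59930 followed with 1114 reads and AGP2, an arabinogalactan protein gene, with 1110.

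**Figure D3:**
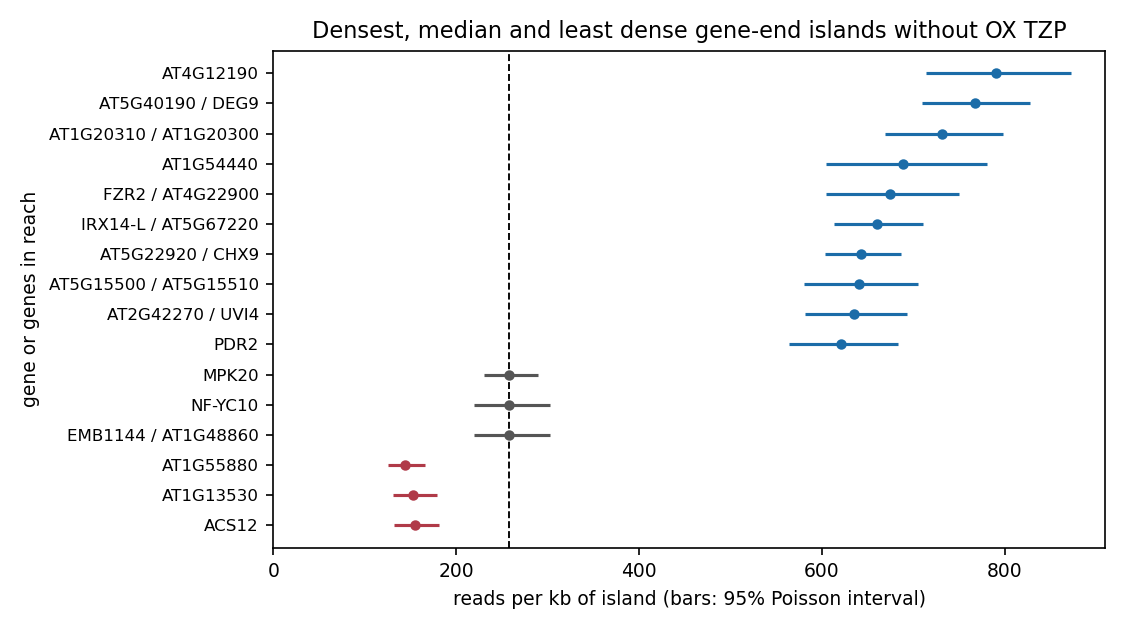
Read density (x axis, reads per kb, bars 95% Poisson intervals) of the 10 densest islands (blue), 3 at the median (grey) and the 3 least dense (red), named by the genes in reach (y axis); the dashed line is the median of 258. The intervals of the densest 10 start at 564 or above and those of the least dense end at 181 or below.

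At the level of genes, 9977 of 27432 protein-coding genes (36.4%) had at least 1 of these islands at an end. That was 69.2% of the 14417 genes with an OX ZFHD10 island of any kind centred at an end, which were 52.6% of all protein-coding genes. No OX TZP island was centred at an end of 8370 of the 9977 (83.9%), or 30.5% of all protein-coding genes. The other 1607 (16.1% of the 9977) had an OX TZP island elsewhere at their ends, and 1288 (12.9%) also had an OX ZFHD10 island that overlapped one. Genes with these islands were longer than genes with no OX ZFHD10 island at an end (median 2292 against 1812 bp) and closer to their neighbours (summed gaps of 1475 against 2340 bp). Genes with an overlapping island at an end had medians of 2354 and 1395 bp, so neither trait was particular to the former. Since 44.3% of the islands reached 2 or more genes, neighbouring genes often count through the same island.

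A total of 8605 genes had 1 such island, 1345 had 2 and 27 had 3, and 1310 (13.1%) had them at both ends. The gene with the most reads among those with 3 was VPS45, which encodes a regulator of vesicle fusion. Its islands had 553 reads per kb (501 to 609) at the end with the lower coordinate, and 240 (194 to 293) and 376 (336 to 420) at the other. CNGC16, an ion channel gene, had 356, 308 and 237 reads per kb. AT4G21445 had 250, 275 and 306. The polyubiquitin gene UBQ3 had 189, 209 and 283, all but the last below the list's first quartile of 228. HEMG2, a protoporphyrinogen oxidase gene, had 344, 278 and 227. None of the 5 genes had an OX TZP island centred at an end, and neither did 83.9% of all genes with such an island.

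Genes of light signalling had such an island in 18 of 39 cases (46.2%, 31.6 to 61.4), against 36.4% of all protein-coding genes. Among the 30 with any OX ZFHD10 island at an end this was 60.0% (42.3 to 75.4), against 69.2%. Photoreceptor genes were among them. At CRY1, a blue-light receptor gene, the island on chromosome 4 at 5722651 to 5724350 had 581 reads, or 342 reads per kb (315 to 371). The nearest OX TZP island was 14300 bp away. At PHYD, a red and far-red light receptor gene, 366 reads per kb were counted (326 to 411). PHOT2, a blue-light receptor for bending and chloroplast movement, had 236 (195 to 283), and its island also reached AT5G58150. That island was centred 439 bp outside PHOT2, with 85.2% of its length inside genes. CRY2, PHYA and PHYB had an overlapping OX ZFHD10 island and none of these. PHYC, PHYE and PHOT1 had neither kind.

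Genes of the COP1 and SPA ubiquitin ligase, which destroys light-signalling factors in the dark, had islands at COP1, SPA1 and SPA2. The island at SPA1 on chromosome 2 at 19026351 to 19028750 had 1086 reads, or 452 reads per kb (426 to 480), the densest of the list of light genes, and lay 300 bp from an OX TZP island. COP1 had 2 islands, of which the denser, on chromosome 2 at 13977601 to 13978150, had 300 (256 to 349). SPA2 had 284 (248 to 323). SPA3 and SPA4 had overlapping islands instead.

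Among the transcription factors, HFR1, an atypical basic helix-loop-helix (bHLH) protein that holds back growth, had an island of 2350 bp on chromosome 1 at 467651 to 470000 with 348 reads per kb (325 to 373), its midpoint 945 bp from the gene. PIF3 and PIF7, bHLH factors that promote hypocotyl growth, had 298 (249 to 353) and 297 (243 to 360). PIL1, a related gene induced by shade, had 246 (204 to 294). At PIF3 the island on chromosome 1 at 3079351 to 3079800 lay at one end, while an OX TZP island was centred at an end of the gene too. HYH, a bZIP relative of HY5, had 236 (201 to 275), BBX21, a B-box activator, 244 (218 to 272), and LAF1, a MYB factor of phytochrome A signalling, 284 (248 to 323). CIB1, a bHLH partner of cryptochrome 2, had 2 islands, the denser with 293 (252 to 340).

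The remaining light genes encode regulators. FHY1 and FHL, which carry phytochrome A into the nucleus, had 266 reads per kb (228 to 309) and 260 (236 to 285). RUP1, a repressor of the UV-B receptor, had 290 (267 to 315). TZP itself had an island on chromosome 5 at 17526001 to 17526850 with 222 (192 to 256), 300 bp from an OX TZP island. HB23, taken as ZFHD10, had none of these islands. Of the 18 genes 14 had no OX TZP island centred at an end, beside 83.9% of all genes with such an island. Over the 21 islands of the 18 genes the median was 284 reads per kb (215 to 452), against 258.

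Auxin is the hormone that drives cell elongation downstream of light and shade signals. The auxin list also took in the shade-induced homeodomain genes HAT1, HAT2, HAT3, HAT4 and ATHB-4 and the phytochrome substrate gene PKS1. Of these only HAT2 lacked such an island. In the whole list 24 of 48 genes (50%, 36.4 to 63.6) had one, against 36.4% of all genes. Of the 32 with any OX ZFHD10 island at an end, 75.0% (57.9 to 86.7) had one, against 69.2%. No OX TZP island was centred at an end of 22 of the 24, beside 83.9% of all genes with such an island. The median over 29 islands was 240 reads per kb (177 to 520). Synthesis genes spanned this range. TAA1, the aminotransferase of the main pathway, had the densest, on chromosome 1 at 26608151 to 26608800, where 338 reads made 520 reads per kb (466 to 578), shared with AT1G70570 and 823 bp from TAA1. YUC8, a flavin monooxygenase gene of the next step, had 286 (241 to 337), and YUC5 had 177 (154 to 203), the lowest.

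Receptor and response genes followed. AFB5 and AFB1, auxin receptor genes, had 333 (295 to 374) and 250 (225 to 277). Of the auxin response factor genes, ARF5 had 274 (237 to 316), ARF7 206 (177 to 237) and ARF6 182 (156 to 211). Among the repressor genes IAA2 had 390 (363 to 418) on chromosome 3 at 8181601 to 8183550, IAA4 363 (321 to 408), IAA17 268 (237 to 302) and IAA29 183 (153 to 216). The IAA29 island was centred 872 bp outside the gene, with 94.4% of its length inside genes. SAUR22 and SAUR23, growth genes next to each other, shared 1 island with 232 (200 to 268), and SAUR15 had 297 (258 to 340). GH3.5, which encodes an enzyme that conjugates auxin, had 241 (218 to 267).

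Of the auxin transport genes, PIN3 had 273 reads per kb (239 to 310), above the median of 258. The values were 224 (195 to 256) at PIN7 and 216 (188 to 247) at AUX1. The shade-induced homeodomain genes included HAT4, with 347 (323 to 371) in an island of 2300 bp whose nearest OX TZP island was 31400 bp away. HAT3 had 3 islands, the densest with 242 (199 to 292), ATHB-4 had 240 (191 to 297), and HAT1 had 224 (183 to 273). PKS1, a phytochrome substrate gene, had 256 (214 to 304).

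Brassinosteroids and gibberellins are growth hormones. Their genes and those of growth bHLH factors had such an island in 16 of 33 cases (48.5%, 32.5 to 64.8), against 36.4% of all genes. Among the 22 with any OX ZFHD10 island at an end this was 72.7% (51.8 to 86.8), against 69.2%. In synthesis, DWF4, a rate-limiting brassinosteroid enzyme gene, had 395 reads per kb (361 to 432) on chromosome 3 at 18817101 to 18818350, and ROT3 had 212 (189 to 238). GA2OX8, which inactivates gibberellins, had 306 (251 to 369) in an island of 350 bp that abutted an OX TZP island. That island was centred 705 bp outside GA2OX8, with 100% of its length inside genes other than GA2OX8. In signalling, the kinase gene BIN2 had 267 (221 to 319), in an island centred 897 bp outside it that also reached AT4G18720 and RPL16B. The factor gene BES1 had 274 (252 to 297), the gibberellin receptor genes GID1B and GID1C 283 (255 to 313) and 271 (250 to 293), and the repressor gene GAI 304 (273 to 338).

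All 3 genes of the BEE group had such an island: BEE3 with 338 (286 to 396), BEE1 with 267 (230 to 308) and BEE2 with 219 (199 to 241). These bHLH factors promote growth, as do HBI1 with 211 (191 to 232) and PRE6 with 288 (225 to 363). Their inhibitors PAR2, PAR1 and IBH1 had 365 (335 to 396), 323 (283 to 366) and 317 (282 to 355). Over the 20 islands of the hormone and bHLH list the median was 278 reads per kb (206 to 395).

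**Figure D4:**
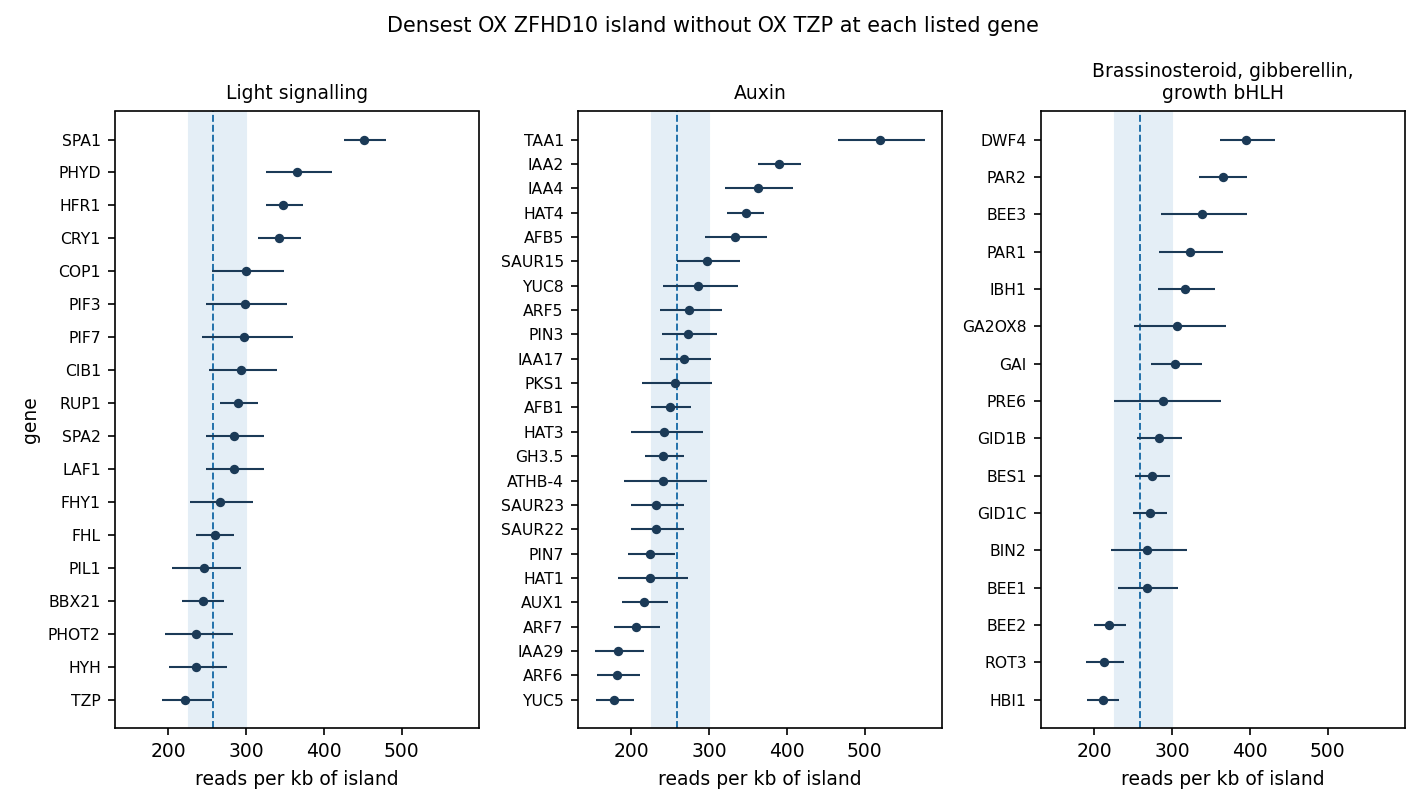
Read density (x axis, reads per kb, bars 95% Poisson intervals) of the densest gene-end island without OX TZP at each gene (y axis) of the light signalling (18 genes), auxin (24) and brassinosteroid, gibberellin and growth bHLH (16) lists; the line and band are the median (258) and quartiles (226 to 300) of all 7755 islands. TAA1, SPA1 and DWF4 lead their lists with 520, 452 and 395.

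Clock genes had such an island in 9 of 21 cases (42.9%, 24.5 to 63.5), against 36.4% of all genes. With each island given to its nearest gene only, this was 23.8%, against 26.1%. RVE1 and RVE4, MYB-like factor genes, had 338 (289 to 393) and 330 (286 to 379), CHE 302 (269 to 338), the blue-light receptor gene FKF1 298 (269 to 330), LNK2 282 (241 to 327) and PRR7 269 (239 to 302). LHY, a core morning gene, PRR3 and BOA were the others. The densest islands of all but FKF1 and BOA also reached a neighbouring gene. Flowering-time genes had one in 6 of 16 cases (37.5%, 18.5 to 61.4), against 36.4%. CO, the daylength sensor gene, had 367 (318 to 422) on chromosome 5 at 5169551 to 5170100, shared with bZIP3 and AT5G15843. CDF1, CDF2 and CDF3, Dof repressors of CO, had 294 (271 to 318), 267 (234 to 303) and 232 (195 to 274), FLC had 260 (215 to 312) and SOC1 258 (231 to 287).

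Cell wall genes had one in 8 of 20 cases (40.0%, 21.9 to 61.3), against 36.4% of all genes. XTH5 and XTH19, wall-loosening enzyme genes, had 291 (238 to 354) and 286 (241 to 337), XTH33 274 (222 to 335), and the expansin genes EXPA8 and EXPA1 262 (231 to 296) and 253 (226 to 282). EXPA11 had 204 (174 to 236), and EXPA5 and COB were lower. Photosynthesis and pigment genes had one in 10 of 30 cases (33.3%, 19.2 to 51.2), against 36.4%. PORC, which makes chlorophyllide in light, had 436 (358 to 526) on 250 bp. The flavonol synthase gene FLS1 had 356 (315 to 401), the antenna genes LHCB6 and LHCA1 320 (276 to 369) and 315 (280 to 353), F3H 285 (253 to 320) and GUN5 283 (246 to 323). The GUN5 island was centred 896 bp outside the gene, with 100% of its length inside genes. None of the 10 photosynthesis and pigment genes with such an island had an OX TZP island centred at an end, and neither did 83.9% of all genes with such an island. The nearest OX TZP island lay from 100 bp (FLS1) to 5600 bp (LHCA3) away from their islands.

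The ZF-HD family and its short MIF relatives had one in 5 of 17 cases (29.4%, 13.3 to 53.1), against 36.4% of all genes. HB25 had 296 reads per kb (232 to 372), HB29 268 (245 to 291), HB28 251 (222 to 282), MIF3 237 (209 to 268) and HB33 236 (195 to 283). Stress response genes had one in 4 of 19 cases (21.1%, 8.51 to 43.3), against 36.4%. Of the 19, 15 had an OX ZFHD10 island of some kind at an end, as did 52.6% of all genes. Those 4 made up 26.7% of the 15 (10.9 to 52.0), against 69.2% of all genes with an OX ZFHD10 island of any kind at an end. The 4 were the heat shock factor gene HSFA2 with 303 (269 to 340), the cold response genes CBF3 with 280 (238 to 328) and CBF2 with 248 (201 to 301), and RAB18 with 225 (190 to 264). The RAB18 island was centred 178 bp outside the gene, with 100% of its length inside genes.

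Housekeeping genes, taken as a comparison list, had one in 7 of 15 cases (46.7%, 24.8 to 69.9). All 15 had an OX ZFHD10 island of some kind at an end, against 52.6% of all genes. The 7 included ACT2 with 338 (293 to 388), GAPC1 with 321 (288 to 357), PP2AA3 with 280 (236 to 330), UBC21 with 246 (197 to 303), EIF4A1 with 239 (212 to 268) and CYP5 with 222 (181 to 270). The share of all genes, 36.4%, lay inside the 95% interval of 9 of the 10 lists, and for auxin it met the lower bound, which is also 36.4% at this rounding. The share of 69.2% lay inside the interval of each list but stress response.

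**Figure D5:**
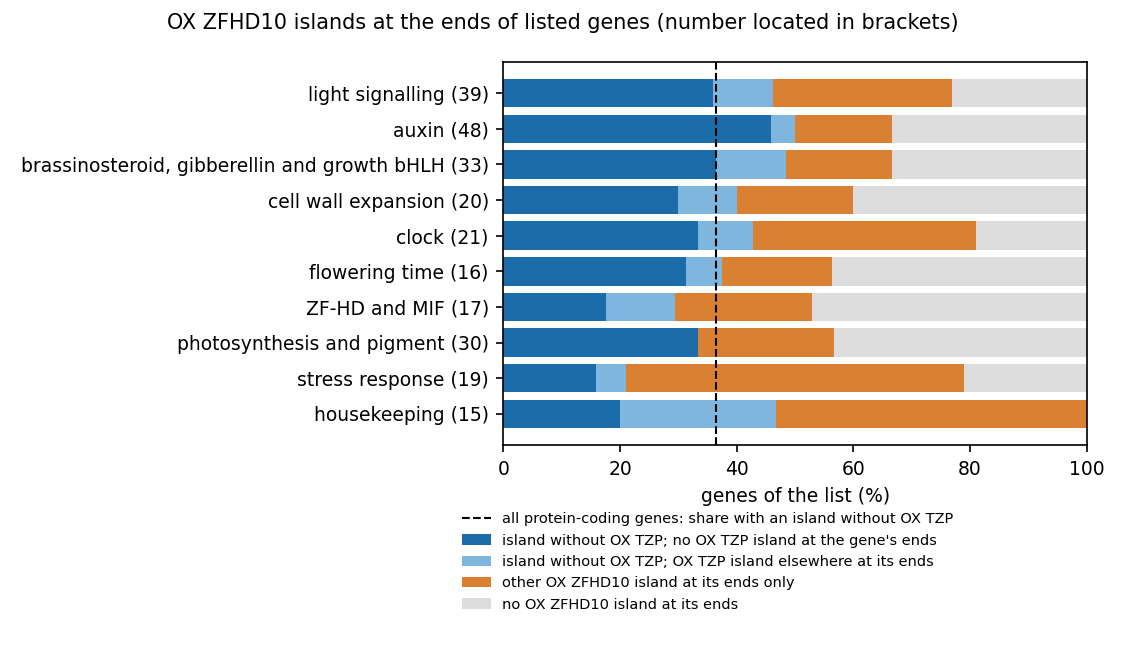
Genes of 10 lists (y axis, number located in brackets) by the OX ZFHD10 islands centred at their ends (x axis, percent of the list): an island without OX TZP (dark and light blue), another island only (orange) or none (grey). The dashed line marks the 36.4% of all protein-coding genes with an island without OX TZP; 7 lists end above it and ZF-HD, photosynthesis and stress response end below.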

How the data were processed

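The labels name 3 libraries, and island lists of 2 were used. Each island in the deposited lists carries a whole number, read from its form as a count of reads; it is scaled neither for depth nor for length. The submitters' processing notes name the build TAIR10, HOMER, SICER 1.1, Bowtie 0.12.7 and cutadapt 1.5, without roles; the control library and the handling of duplicates are not given in the sources used here. File names give 50 bp windows, 200 bp gaps and a false discovery rate of 0.1, a loose limit that admits weak islands.

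Positions were counted from 1 and reads divided by length in kb. Genes came from a table of TAIR10.1 without strand or sequence. Over 25 segments of the chromosomes, midpoints fell inside genes least often at an offset of at most 200 bp, so positions of both builds were used together. Start and end sides, promoters and motifs planned at the outset were not analysed here. Intervals are 95% Wilson (shares) and exact Poisson (density). The rule was tested on simulated islands. Python 3.11.15, numpy 2.4.6, pandas 2.3.3 and scipy 1.17.1 were used.

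The members, the 10 gene lists and the families were chosen with earlier results of these data known. Of 268 listed symbols 258 were located, and BIC1, BIC2, PCH1, RVE6, CDF5, EF1A, TIP41L, SAND, RPL4A and H2AX were not. Named were the 10 densest islands, 3 at the median, the 3 least dense, the 5 genes with the most islands (ties by reads), every gene of the light, auxin and brassinosteroid lists, and up to 6 of each other list by density; a few further ones were picked with their values in view. For genes with several islands the value is that of the densest. Alternatives changed the window, length limit, overlap, reads and assignment of genes.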

Additional observations from a re-analysis of the deposited data

How the results depend on the processing

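The number of islands ran from 6518 (500 bp window) to 9168 (2000 bp) and that of genes from 8000 to 12838 over the other windows, length limits and overlap rules. Keeping the 50% of OX ZFHD10 islands with the most reads left 3238 islands and 4414 genes. The share of genes with an island was 26.1% with the nearest gene only, 29.2% with the 500 bp window and 19.7% with the densest 50% of the islands. The share denser than the median overlapping island stayed under 50% in each setting: 40.9% under 1500 bp, 29.8% for reads per island, 38.2%, 36.4% and 41.2% on chromosomes 2, 4 and 5, and 42.5%, 42.5%, 37.9% and 41.7% at 200 to 400, 450 to 650, 1000 to 1450 and 1500 to 2450 bp. Of 30 list shares under alternatives 23 stayed within the interval of the value reported. The share of all genes fell in these settings too, so this count does not show whether a list kept its standing. Lists above the share of all genes numbered 7 as reported, and 5, 6 and 8 with the nearest gene, the 500 bp window and the densest 50%; ZF-HD and stress response were below in all 4. Start against end sides and promoter motifs were not run, for want of strand and sequence. No paired analysis was possible because each group had 1 library. The fewest reads in a listed island were 55, and among the 7755 islands this minimum rose with length, from 60 at 200 to 400 bp to 262 at 1500 to 2450 bp. What depth left unlisted was not tested.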

Other observations

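In 16 families found by gene symbol, the share of genes with a gene-end island without OX TZP was set beside the 36.4% of all protein-coding genes. That value lay inside the interval of 14 families, just below that of cyclin genes (36.5 to 65.7) and above that of AGAMOUS-like MADS genes. AGAMOUS-like MADS genes, which include regulators of flower development, had one in 19 of 98 cases (19.4%, 95% Wilson interval 12.8 to 28.3). An OX ZFHD10 island of any kind was centred at an end of 29.6% of them, against 52.6% of all protein-coding genes. Cyclin genes had one in 21 of 41 (51.2%, 36.5 to 65.7), Dof factor genes in 8 of 14 (57.1%, 32.6 to 78.6), heat shock factor genes in 10 of 20 (50%, 29.9 to 70.1) and WRKY genes in 32 of 71 (45.1%, 34 to 56.6). MYB genes had one in 36 of 125 (28.8%, 21.6 to 37.3), NAC genes in 26 of 81 (32.1%, 22.9 to 42.9) and cytochrome P450 genes in 84 of 234 (35.9%, 30.0 to 42.2).

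Among genes with an OX ZFHD10 island at an end, the share with an island without OX TZP was 69.2% overall. It was 29 of 32 (90.6%, 75.8 to 96.8) for small auxin up RNA (SAUR) genes, whose share over all 80 genes was 36.2% (26.6 to 47.2), with a median density of 233 reads per kb over 31 islands, and 6 of 17 (35.3%, 17.3 to 58.7) for histone genes. SAUR genes lie in clusters, and neighbours can count through the same island, as SAUR22 and SAUR23 did. The other 14 families had values between, from 54.2% for B-box genes to 88.9% for Dof factor genes. No family was tested.

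Midpoints of these islands also lay at the ends of genes that encode no protein. Beside the 36.4% of protein-coding genes, they did so for 122 of 287 small nucleolar RNA genes (42.5%), 24 of 79 antisense RNA genes (30.4%), 22 of 82 small nuclear RNA genes (26.8%) and 158 of 625 transfer RNA genes (25.3%). The values were 45 of 221 other noncoding RNA genes (20.4%), 639 of 3480 long noncoding RNA genes (18.4%), 82 of 508 genes of miscellaneous RNA (16.1%), 49 of 326 microRNA genes (15.0%), 82 of 926 transcribed pseudogenes (8.86%), 0 of 4 ribosomal RNA genes and 88 of 3917 pseudogenes (2.25%). Each such island was chosen for lying at a protein-coding gene end too.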
